A study of Mus musculus with 18 samples.

Results

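Glycolysis and the response to low oxygen were followed in mouse N2A cells through 42 genes, listed by symbol among the 55414 counted features. The list holds the glucose transporters *Slc2a1* and *Slc2a3*, the enzymes from hexokinase to pyruvate kinase, the lactate dehydrogenases and lactate transporters, the pyruvate dehydrogenase kinases, and targets and regulators of the hypoxia-inducible factor HIF1. It was drawn up in part because *Gapdh* was lower after *Fmr1* KD. The comparisons of *Fmr1* KD with Scramble KD are therefore given as a description without a test. Nothing is read from the number of genes lower in them. Only the difference between their siRNA A and siRNA B effects was tested, and that test is not independent of the choice. The rule set no threshold on a measured value, so there are no members just inside or outside it. Counting was deep enough to fit 39 of the 42 genes, and *Ldhb*, *Pdk3* and *Egln3* stayed under the filter on low counts.

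N2A (Neuro-2a) is an established mouse neuroblastoma line, and every library came from it without another genetic change. Cells were treated for 72 h with 1 of 6 siRNAs, labelled negative control scrambled siRNA A or B (Scramble KD), fmrp siRNA A or B (*Fmr1* KD) and znf siRNA A or B (*Zfp598* KD), with 3 libraries for each siRNA and 18 in all. Total RNA was depleted of rRNA before sequencing. Libraries are named here by target, siRNA letter and replicate, as in Fmr1 B1. All groups share the transfection method, the medium with high glucose and the single cell line. The labels do not say whether siRNA A and siRNA B were transfected or prepared on separate occasions, so in every comparison of siRNA B with siRNA A the siRNA and such an occasion cannot be told apart. The paper states that knockdown was done in triplicate for each siRNA. The labels do not say whether these knockdowns were made on separate occasions. The p-values below measure the spread between these libraries, which may not include that between occasions.

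Glycolysis splits glucose into pyruvate in the cytosol and yields ATP without oxygen. When oxygen falls, the prolyl hydroxylases that mark HIF1 alpha for degradation slow down, and the stabilised factor binds a short DNA motif near genes for glucose uptake, glycolysis, lactate export and angiogenesis. Tumour lines such as neuroblastomas use glycolysis heavily even in air. *Gapdh* mRNA and its protein are widely used as references. In this study GAPDH was the loading control of blots of cell lysates. It was also the reference for the RT-qPCR that repeated the knockdowns to check putative targets. HIF1 alpha is controlled mainly through the stability of its protein, which RNA counts do not measure.

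Total counts per library ran from 7674724 to 15414590. CPM values below are counts scaled to library size TMM correction of that size. A single feature without an annotation entry took 5.00% to 25.8% of the counts, with the highest share in Zfp598 A3 and 15.2% in Zfp598 A2. *Fmr1* had 51.1 to 68.7 CPM in the Scramble KD libraries and 15.7 to 27.5 CPM in the *Fmr1* KD libraries, and *Zfp598* had 103 to 128 CPM in Scramble KD and 32.2 to 48.7 CPM in *Zfp598* KD. Of 14 neuroblastoma markers, 11 passed the filter, while *Nefl* and *Nefm* stayed at or below 0.405 CPM. The 13 markers of other cells summed to 28.7 to 47.0 CPM. Most of this was *Mbp* (13.8 to 29.7 CPM) and *Pdgfra* (5.11 to 15.3 CPM), which were present in every library, while *Hbb-bs*, *Epcam* and *Krt18* were at 0 in 16 or 17 of the 18. Mean *Pdgfra* was 7.87 and 5.27 CPM in Scramble A and B and 13.9 and 11.7 CPM in Fmr1 A and B, and its part in the results below was not tested. Fmr1 B1 stood apart. It held 122 features with at least 10 counts that had 0 counts in the other 17 libraries, and no other library held such a feature. Scramble B3 stood apart for the glycolysis and hypoxia genes themselves. There 35 of the 39 genes were below the mean of the Scramble KD libraries, against 5 to 26 in the other Scramble KD libraries. Results that rest on these libraries are given below with and without them.

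The core of the motif that HIF1 binds, ACGTG or GCGTG on either strand, was looked for in the window from 250 bases before to 50 bases after each annotated start (GRCm39, GENCODE M39). ACGTG on both strands at once reads CACGTG and was counted as 2 overlapping matches. Of the 38 fitted protein-coding members, 28 (73.7%) had at least 1 match, against 59.6% of all 13122 protein-coding promoters of the same length, and 20 (52.6%) had 2 or more, against 31.7%. The promoters of 4 genes with several matches and the promoter of *Eno2*, which had none, are shown because these genes carry the differences between siRNAs described below. Each runs 5′ to 3′ along the gene's strand, with the matches in capitals. The positions are chr7:46495013-46495312, plus strand, for *Ldha*, chr7:138511204-138511503, minus strand, for *Bnip3*, chr11:53991500-53991799, plus strand, for *P4ha2*, chrX:105230456-105230755, plus strand, for *Pgk1*, and chr6:124746587-124746886, minus strand, for *Eno2*.
Ldha: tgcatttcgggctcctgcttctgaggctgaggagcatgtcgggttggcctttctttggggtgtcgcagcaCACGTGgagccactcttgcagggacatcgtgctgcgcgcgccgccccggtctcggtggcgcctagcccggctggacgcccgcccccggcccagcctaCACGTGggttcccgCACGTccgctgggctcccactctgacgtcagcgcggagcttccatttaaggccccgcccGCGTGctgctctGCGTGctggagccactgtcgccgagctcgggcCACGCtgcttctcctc
Bnip3: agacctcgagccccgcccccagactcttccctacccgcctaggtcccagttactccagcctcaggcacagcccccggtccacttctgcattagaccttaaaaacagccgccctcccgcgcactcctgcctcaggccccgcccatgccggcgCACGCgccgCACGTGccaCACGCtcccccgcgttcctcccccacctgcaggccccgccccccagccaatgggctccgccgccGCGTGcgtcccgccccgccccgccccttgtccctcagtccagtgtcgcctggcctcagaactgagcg
P4ha2: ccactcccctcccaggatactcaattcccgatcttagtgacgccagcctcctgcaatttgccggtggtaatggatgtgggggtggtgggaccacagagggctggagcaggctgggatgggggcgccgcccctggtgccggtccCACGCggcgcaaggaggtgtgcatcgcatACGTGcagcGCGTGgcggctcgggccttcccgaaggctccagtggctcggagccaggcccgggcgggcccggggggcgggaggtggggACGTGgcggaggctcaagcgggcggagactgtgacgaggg
Pgk1: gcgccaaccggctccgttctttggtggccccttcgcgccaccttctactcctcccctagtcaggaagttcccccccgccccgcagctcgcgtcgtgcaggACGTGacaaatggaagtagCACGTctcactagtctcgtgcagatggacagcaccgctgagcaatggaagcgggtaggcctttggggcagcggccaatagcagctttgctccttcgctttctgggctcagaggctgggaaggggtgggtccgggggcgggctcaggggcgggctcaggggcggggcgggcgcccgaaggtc
Eno2: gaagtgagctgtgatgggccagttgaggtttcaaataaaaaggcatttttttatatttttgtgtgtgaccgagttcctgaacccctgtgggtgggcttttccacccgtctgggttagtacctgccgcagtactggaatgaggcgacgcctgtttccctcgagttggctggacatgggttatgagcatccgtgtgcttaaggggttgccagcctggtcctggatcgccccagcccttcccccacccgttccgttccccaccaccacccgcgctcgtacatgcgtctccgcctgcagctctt

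*Ldha* had 8 matches in this window, the most of any member, and *Bnip3* had 5, *P4ha2* 4 and *Pgk1* 2. A match is a run of letters and not a measured binding site, and its absence from *Eno2* says only that these letters are not in these 300 bases. For the 28 genes with a match and the 10 without, the median log2 changes were 0.57 and 0.45 for *Fmr1* siRNA B against siRNA A, and -0.39 and -0.62 for *Zfp598* siRNA B against siRNA A.

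In Scramble KD the genes spanned a wide range in level per length, from 0.0466 for *Egln3* to 402 for *Tpi1*. The level is given as mean CPM per kb of annotated exon over 6 libraries. The length merges the exons of all annotated transcripts of a gene, as in 7160 bases for *Gapdh* and 2771 for *Tpi1*. It can exceed the length of the expressed transcript, so the order of genes depends on the annotation. Highest on this measure were *Tpi1* (triosephosphate isomerase) at 402, *Aldoa* (aldolase A) at 386 and *Pgk1* (phosphoglycerate kinase) at 329.7 CPM per kb. *Ldha* (lactate dehydrogenase A) followed at 277 and *Gapdh* (glyceraldehyde-3-phosphate dehydrogenase) at 228 CPM per kb. *Eno1* (enolase 1) had 169, *Pkm* (pyruvate kinase M) 146 and *Pgam1* (phosphoglycerate mutase) 137 CPM per kb. *Slc2a3* (GLUT3, the neuronal glucose transporter) at 76.2 CPM per kb was above *Slc2a1* (GLUT1) at 17.6. Targets of HIF1 lay over the whole range. *Vegfa* had 86.5, *P4ha1* 43.8, *Bnip3* 38.3, *P4ha2* 31.1 and *Bnip3l* 24.4 CPM per kb, while others were scarce, with *Car9* (carbonic anhydrase 9) at 0.846, *Ndrg1* at 0.991, *Pdk1* at 2.04 and *Adm* (adrenomedullin) at 4.69 CPM per kb. In the plot of level per length, neighbours such as *Tpi1* and *Aldoa* or *Eno1* and *Pkm* overlap within 1 SD.

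**Figure D1:**
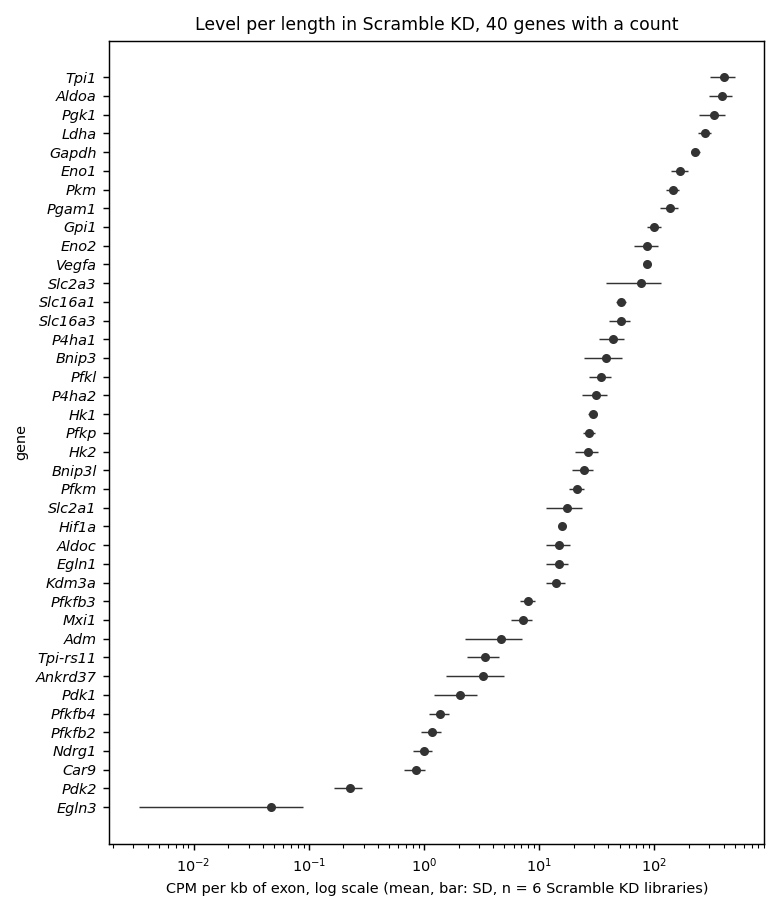
Level of 40 genes in Scramble KD on a log scale, as mean CPM per kb of annotated exon with the SD over 6 libraries (horizontal bar). On this measure, which depends on the annotated exon length, *Tpi1* was highest and *Egln3* lowest. *Ldhb* and *Pdk3*, which had 0 counts in these 6 libraries, are not drawn.

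As a description without a test, the median of the genes after *Fmr1* KD stood below Scramble KD, and siRNA A lay lower than siRNA B. With both siRNAs pooled, the median log2 change of the 39 genes was -0.62, with 36 of 39 below 0. Of all 17901 genes tested 49.7% were below 0, and of the 4677 genes with a mean of at least 50 CPM 59.8%. This contrast entered the choice of the list, so nothing is read from the number below 0. With siRNA A alone the median was -0.91, and -0.37 with siRNA B. *Gapdh*, the gene that entered the choice of the list, had 999, 985 and 1030.0 CPM with siRNA A and 1035, 1203 and 1110.0 CPM with siRNA B. It had 1759, 1517 and 1548 CPM with Scramble siRNA A and 1613, 1865 and 1488 CPM with Scramble siRNA B. The groups did not overlap, and the log2 change of *Gapdh* was -0.68 with the first siRNA and -0.56 with the other.

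In 10 of the 39 genes every *Fmr1* KD library was below every Scramble KD library, with a background of 3.33% of genes. These were *Gpi1*, *Pfkp*, *Aldoa*, *Gapdh*, *Pgk1*, *Pgam1*, *Eno2*, *Pkm*, *Slc16a1* and *Vegfa*. For siRNA A against Scramble siRNA A the same held for 33 of 39 genes (background 19.5%), and for siRNA B against Scramble siRNA B for 13 of 39 (background 21.3%). Since these contrasts were used in choosing the list, the counts are printed as a description. The median for siRNA B was -0.58 without Scramble B3 and -0.21 without Scramble B2, so a single control library moved it by more than 1.5 times in either direction.

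*Eno2*, the neuronal enolase, was among the genes furthest below Scramble KD with both *Fmr1* siRNAs. It had 188, 190.1 and 194 CPM with siRNA A and 176, 236 and 209 CPM with siRNA B, against 665, 552 and 510.3 CPM in Scramble A and 522, 611 and 311 CPM in Scramble B. The lowest control, Scramble B3, was still above every *Fmr1* KD library. *Vegfa*, the growth factor that drives vessel sprouting, also lay lower with both siRNAs, at 231, 236 and 270.4 and 195, 224 and 229 CPM against 345 to 408 CPM in Scramble KD. *Pgk1* was at 222, 239.5 and 242 CPM with siRNA A and 382, 505 and 463 CPM with siRNA B, against 526 to 1003 CPM in Scramble KD. In all, 3 genes lay above 0 with both siRNAs pooled. They were *Pdk2* (0.58), *Pfkfb4* (0.51) and *Pfkfb2* (0.15).

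**Figure D2:**
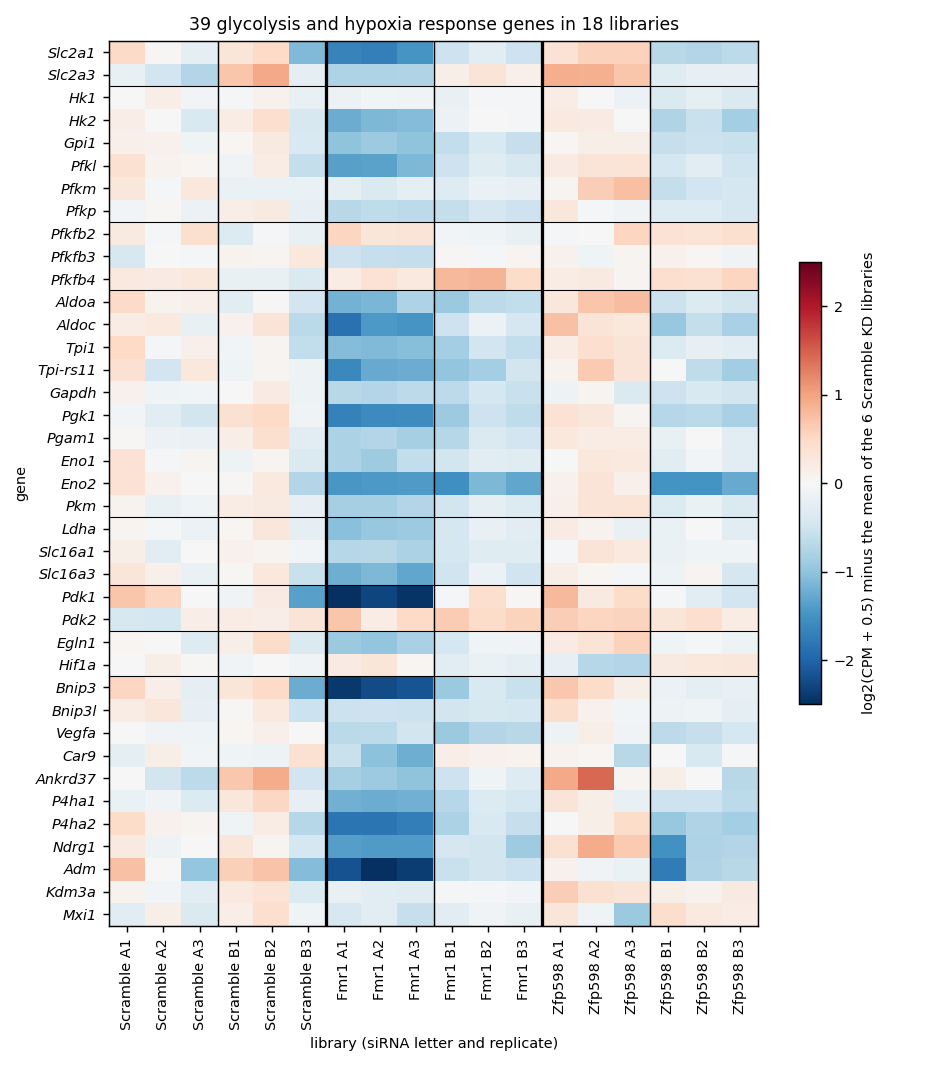
Each cell is the log2(CPM + 0.5) of a gene (rows, grouped by role) in a library (columns, 18) minus the mean of the 6 Scramble KD libraries. The Fmr1 A libraries are the bluest block, with *Pdk1*, *Bnip3* and *Adm* far below 0, Scramble B3 is bluer than the other Scramble libraries, and *Zfp598* A and B libraries lie on opposite sides of 0 for most rows.

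The summed level of 16 genes, the 15 enzymes from hexokinase to pyruvate kinase and *Ldha*, gave the same order of groups. The sum was 7192 to 7899 CPM in Fmr1 A and 8976 to 10671 CPM in Fmr1 B. It was 11092.5 to 16427.5 CPM in Scramble KD, 15316 to 17239 CPM in Zfp598 A and 10295 to 11436 CPM in Zfp598 B. Libraries of Fmr1 A were below all others, and those of Zfp598 B overlapped Fmr1 B and Scramble B3. In a bulk library, fewer cells of a kind and less RNA per cell cannot be told apart.

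**Figure D3:**
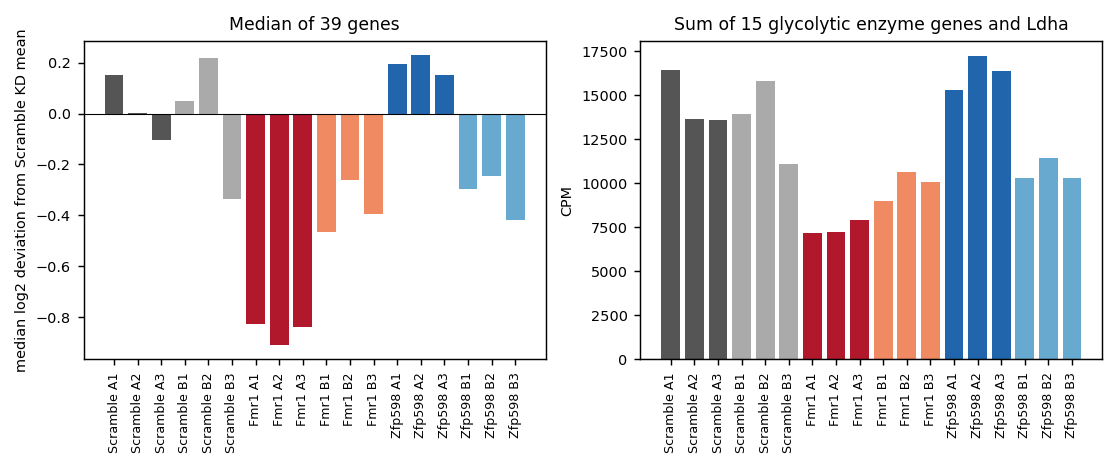
Left, median over 39 genes of the log2 deviation from the mean of the Scramble KD libraries, 1 bar per library. Right, summed CPM of 16 glycolytic genes. The 3 Fmr1 A libraries are lowest in both (sums of 7192 to 7899 CPM), and Scramble B3 is the lowest control.

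The siRNAs against *Fmr1* were then compared with each other. The choice of the list did not use this contrast, but it did use the same *Fmr1* KD libraries. The question was whether the genes depended on which *Fmr1* siRNA was used. They did for most of the list: 23 of 39 genes were higher and 2 lower with siRNA B than with siRNA A, where 12.6% of all 19003 genes were called higher and 10.4% lower. The median log2 difference was 0.46, with 36 of 39 above 0, against 0.0037 over all genes. Among the 4677 genes with a mean of at least 50 CPM, which hold 29 of the members, 16.8% were called higher and 19.4% lower. All 39 genes were tested in a model of the 6 siRNA groups with edgeR's quasi-likelihood test, with the p-values adjusted over all 19003 genes.

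Both glucose transporters were higher with *Fmr1* siRNA B. *Slc2a1* had 24.0, 23.5 and 27.6 CPM with siRNA A and 54.0, 64.2 and 53.6 CPM with siRNA B, a log2 difference of 1.19 ± 0.26 (SE), adjusted p = 0.00166. The siRNAs did not overlap, and Scramble KD spanned 35.7 to 109.7 CPM. *Slc2a3* differed by 0.97 ± 0.19 (SE), adjusted p = 0.000711.

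In the upper pathway *Hk2*, *Pfkl* and *Gpi1* were higher with siRNA B. *Hk2*, the hexokinase that responds to insulin and HIF1, had 91.2, 98.2 and 101 CPM with siRNA A and 194, 214 and 211 CPM with siRNA B (1.09 ± 0.15 (SE), adjusted p = 2.26e-05). *Hk1*, the constitutive hexokinase, had 229, 242 and 238 and 224, 251 and 249.6 CPM, and its difference of 0.034 ± 0.092 (SE) was not called. Of the phosphofructokinases, which commit sugar to glycolysis, the liver form *Pfkl* differed by 0.87 ± 0.14 (SE), adjusted p = 0.000103, while the muscle form *Pfkm* (0.032 ± 0.12 (SE)) and the platelet form *Pfkp* (0.14 ± 0.11 (SE)) were not called. The bifunctional enzymes that make and remove the activator of phosphofructokinase split. *Pfkfb3* (0.60) and *Pfkfb4* (0.46) were higher and *Pfkfb2* (-0.52) was lower. The call for *Pfkfb4* was lost without Fmr1 B1 or Fmr1 B2 (0.38, adjusted p = 0.0593, without Fmr1 B2), and that for *Pfkfb2* without Fmr1 A1 (-0.45, adjusted p = 0.0627, without Fmr1 A1).

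In the lower pathway 5 of 10 genes were called, all higher with siRNA B. *Aldoc*, the brain aldolase, rose from 18.3, 24.8 and 24.3 CPM to 47.1, 61.0 and 50.9 CPM (1.24 ± 0.20 (SE), adjusted p = 0.000123), while *Aldoa* differed by 0.30 ± 0.15 (SE) and was not called. *Pgk1* differed by 0.94 ± 0.13 (SE), adjusted p = 1.94e-05, and *Pkm* by 0.44 ± 0.11 (SE), adjusted p = 0.00495. *Tpi1* and *Eno1* were called in the full set, with log2 differences of 0.45 and 0.42. The call for *Tpi1* was lost without any single library other than Fmr1 B1 (0.35, adjusted p = 0.142, without Fmr1 B2), and the call for *Eno1* without Fmr1 A1, A2 or B2 (0.36, adjusted p = 0.0752, without Fmr1 A2). *Gapdh* (0.15 ± 0.10 (SE)) and *Eno2* (0.12 ± 0.17 (SE)) were not called, and both lay below Scramble KD with either siRNA.

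The genes for lactate formation and export were higher with siRNA B. *Ldha* had 632, 673 and 694 CPM with siRNA A and 966, 1146 and 1079 CPM with siRNA B (0.68 ± 0.12 (SE), adjusted p = 0.000257). *Slc16a3* (MCT4), the exporter of lactate in glycolytic cells, had 243, 259.5 and 231 CPM and 402, 510.4 and 403 CPM (0.84 ± 0.16 (SE), adjusted p = 0.000697), and *Slc16a1* (MCT1) differed by 0.38 ± 0.10 (SE), adjusted p = 0.0089. The libraries of the siRNAs did not overlap for any of these genes.

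The called genes that differed most between the *Fmr1* siRNAs are known targets of HIF1. *Pdk1*, a kinase of pyruvate dehydrogenase, had 2.03, 2.92 and 2.59 CPM with siRNA A and 16.0, 22.1 and 16.7 CPM with siRNA B. The level with siRNA B was 7.25-fold higher (2.86 ± 0.33 (SE), adjusted p = 1.96e-06). The siRNA B libraries lay within the Scramble KD range of 6.07 to 26.7 CPM, and those of siRNA A lay below it. *Adm*, a vasodilator peptide, had 1.08, 0.611 and 0.888 CPM with siRNA A and 4.38, 4.69 and 4.46 CPM with siRNA B (2.38 ± 0.53 (SE), adjusted p = 0.00223), and its counts in the siRNA A libraries were 16, 9 and 12. *Bnip3*, a mitophagy receptor, had 28.3, 32.1 and 34.0 CPM and 80.1, 118 and 104 CPM (1.68 ± 0.29 (SE), adjusted p = 0.000211). Its close relative *Bnip3l* differed by 0.099 ± 0.15 (SE) and was not called.

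Collagen prolyl hydroxylase subunits moved with them. *P4ha2* had 74.8, 74.7 and 79.1 CPM with siRNA A and 152, 204 and 177 CPM with siRNA B (1.22 ± 0.17 (SE), adjusted p = 1.63e-05), and *P4ha1* differed by 0.73 ± 0.15 (SE), adjusted p = 0.000914. *Car9* (counts of 18, 11 and 8 with siRNA A) differed by 1.39 ± 0.32 (SE), adjusted p = 0.00284, and *Ndrg1* by 0.94 ± 0.25 (SE), adjusted p = 0.00983. *Vegfa* (-0.19 ± 0.094 (SE)), *Kdm3a*, *Mxi1* and *Ankrd37* were not called. *Egln1*, the main oxygen-sensing prolyl hydroxylase, was higher with siRNA B (0.71 ± 0.15 (SE), adjusted p = 0.00175), whereas *Hif1a* mRNA was lower (-0.43 ± 0.11 (SE), adjusted p = 0.00496).

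Leaving out each of the 6 *Fmr1* KD libraries in turn gave 22 to 24 called genes, and 21 of the 25 calls held in every such fit. Without Fmr1 B1 and Scramble B3 together, a choice made after the data were seen, 26 genes were called. Replication and mitosis genes differed in the same comparison, with 11 of 12 proliferation genes higher with siRNA B (median 0.78) and a sum of 916 to 976 CPM with siRNA A against 1620 to 1716 CPM with siRNA B. Of 10 genes of the stress response driven by ATF4, 8 were lower with siRNA B (median -0.79). Of 11 neuroblastoma markers 3 were called, each higher (median 0.20), among them *Mycn*, the transcription factor amplified in many neuroblastomas (1.15 ± 0.15 (SE), adjusted p = 1.01e-05). *Fmr1* itself had 15.7 to 22.0 CPM with siRNA A and 25.1 to 27.5 CPM with siRNA B. Their part in the difference was not tested.

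**Figure D4:**
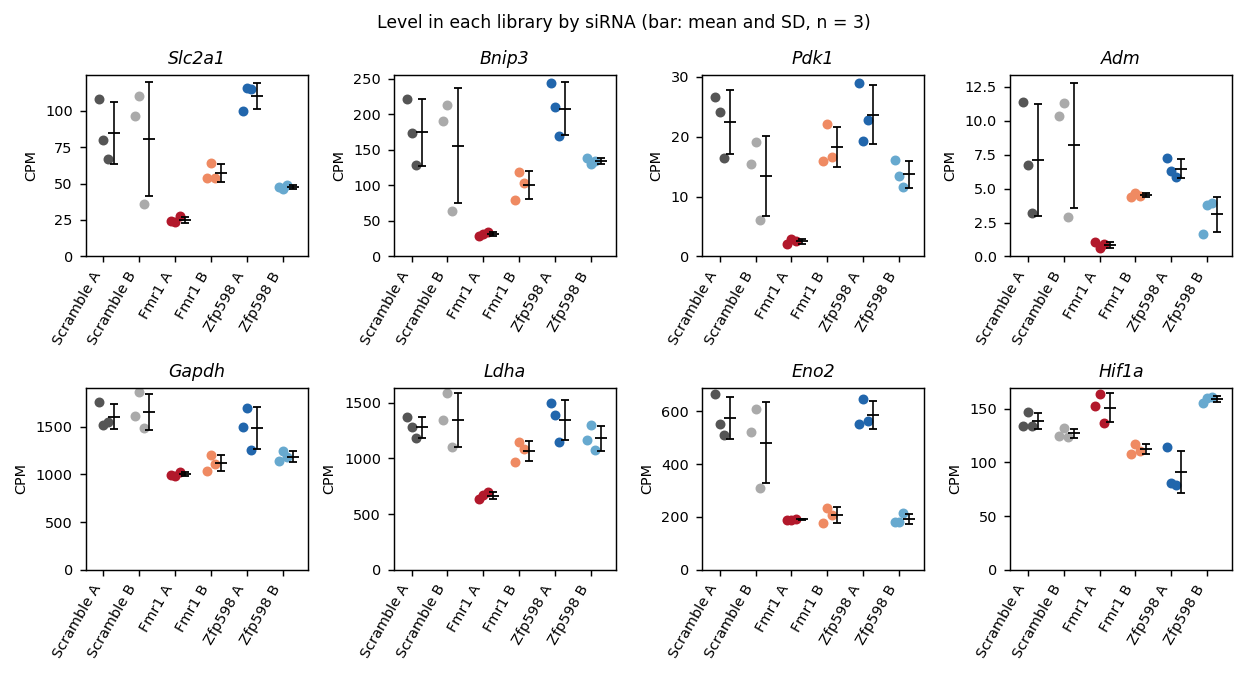
CPM of 8 genes in each library by siRNA, with points for the libraries and a bar for the mean and SD (n = 3). For *Slc2a1*, *Bnip3*, *Pdk1*, *Adm* and *Ldha* Fmr1 A is lowest, *Eno2* is low in both *Fmr1* siRNAs and in Zfp598 B, and *Hif1a* is lowest in Zfp598 A.

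To ask whether *Zfp598* siRNAs differed in the same way, siRNA B was compared with siRNA A of *Zfp598*, a comparison that shares no library with the previous. Here the genes were lower with siRNA B. Of 39 genes, 25 were lower and 1 was higher, where 18.1% of all genes were called lower and 15.2% higher. The median was -0.54, with 34 of 39 below 0, against -0.0013 over all genes. Among the well counted genes 28.9% were called lower and 21.3% higher.

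All 6 enzymes of the upper pathway and 9 of 10 genes of the lower pathway were lower with *Zfp598* siRNA B. The largest difference among the enzymes was that of *Eno2*, with 551, 648 and 562 CPM with siRNA A and 182, 182 and 214 CPM with siRNA B, 3.03-fold less (-1.60 ± 0.17 (SE), adjusted p = 9.76e-07). *Aldoc* had 113, 85.1 and 81.7 CPM and 34.9, 45.1 and 38.4 CPM (-1.24 ± 0.20 (SE), adjusted p = 9.51e-05). *Aldoa*, which had not differed between the *Fmr1* siRNAs beyond the threshold, had 2457, 3299 and 3455 CPM and 1395, 1603 and 1472 CPM (-1.04 ± 0.15 (SE), adjusted p = 2.82e-05). No library of siRNA B reached a library of siRNA A for these 3 genes.

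*Pgk1* differed by -0.97 ± 0.13 (SE), adjusted p = 1.38e-05, *Pfkm* by -0.996 ± 0.12 (SE), adjusted p = 6.55e-06 and *Hk2* by -0.87 ± 0.15 (SE), adjusted p = 0.000236. *Slc2a1* fell from 99.6, 116 and 115 CPM with siRNA A to 47.7, 46.4 and 48.8 CPM with siRNA B (-1.20 ± 0.25 (SE), adjusted p = 0.00107), and *Slc2a3* differed by -1.06 ± 0.19 (SE), adjusted p = 0.000256. *Gapdh* was called in the full set at -0.31 ± 0.10 (SE), and the call was lost without Zfp598 A2, B1 or B3 (-0.20, adjusted p = 0.176, without Zfp598 A2). *Eno1* (-0.38; -0.33, adjusted p = 0.0827, without Zfp598 A2), *Pgam1* (-0.34; -0.29, adjusted p = 0.14, without Zfp598 B3) and *Slc16a1* (-0.30; -0.22, adjusted p = 0.151, without Zfp598 A2) lost their calls without at least 4 of the 6 libraries.

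Of the 3 genes for lactate and its export 1 was called in this comparison. *Ldha* (-0.18 ± 0.12 (SE)) and *Slc16a3* (-0.20 ± 0.16 (SE)) were not called. *Ldha* had 1492, 1386 and 1146 CPM with siRNA A and 1160.0, 1301 and 1073 CPM with siRNA B, and the siRNAs overlapped. The 3 genes for the activator of phosphofructokinase were not called either, at 0.22 for *Pfkfb2*, 0.011 for *Pfkfb3* and 0.29 for *Pfkfb4*.

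Among the HIF1 targets, *Ndrg1*, which is induced by low oxygen and by differentiation, had 9.70, 14.3 and 11.7 CPM with siRNA A and 2.23, 4.08 and 4.17 CPM with siRNA B (-1.76 ± 0.24 (SE), adjusted p = 1.58e-05). *P4ha2* (-1.05 ± 0.17 (SE), adjusted p = 7.65e-05), *P4ha1* (-0.67 ± 0.15 (SE), adjusted p = 0.0015) and *Vegfa* (-0.52 ± 0.094 (SE), adjusted p = 0.00027) were lower as well. *Pdk1* (-0.79) lost its call without Zfp598 A1, B2 or B3 (-0.69, adjusted p = 0.11, without Zfp598 B3). *Ankrd37* (-1.16) lost it without Zfp598 A2 or B3 (-0.82, adjusted p = 0.103, without Zfp598 A2), and *Egln1* (-0.46) without Zfp598 A3, B1 or B3 (-0.36, adjusted p = 0.105, without Zfp598 A3). *Bnip3* (-0.63 ± 0.28 (SE)), *Adm* (-1.08 ± 0.45 (SE)) and *Car9* (-0.056 ± 0.32 (SE)) were not called.

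*Hif1a* mRNA ran against its targets. It had 114, 80.9 and 79.2 CPM with *Zfp598* siRNA A and 155, 159.8 and 160.5 CPM with siRNA B (0.79 ± 0.11 (SE), adjusted p = 1.58e-05), with Scramble KD at 124 to 147 CPM between them. No library of siRNA A overlapped the Scramble KD range, and neither did those of siRNA B. Leaving out 1 *Zfp598* KD library at a time gave 19 to 26 called genes, and 19 of the 26 calls held in every such fit. Zfp598 A2 and A3 carried the most of the unannotated feature, and without both, a choice made after the data were seen, *Hif1a* differed by 0.48 (adjusted p = 0.00419), *Pfkm* by -0.56 (adjusted p = 0.00244) and *Tpi1* by -0.45 (adjusted p = 0.137), with the lone siRNA A library assumed to vary like the other groups. Of 12 proliferation genes 7 were higher and 1 was lower with siRNA B (median 0.34), where 15.2% of all genes were higher and 18.1% lower. Of 11 neuroblastoma markers 3 were higher and 3 lower (median -0.040), with *Mycn* among the lower (-1.51 ± 0.15 (SE), adjusted p = 5e-07). Their part in the difference was not tested.

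With siRNAs matched by letter, most of the differences between siRNAs were of opposite sign for *Fmr1* and *Zfp598*. As far as the labels say, the letters only name the siRNAs of each target, so this matching is arbitrary. Exchanging the letters of either target would turn opposite signs into equal signs. Of the 39 genes, 16 (41.0%) were higher with siRNA B of *Fmr1* and lower with siRNA B of *Zfp598*, where 4.14% of all 19003 genes were. They were *Slc2a1*, *Slc2a3*, *Hk2*, *Gpi1*, *Pfkl*, *Aldoc*, *Tpi1*, *Pgk1*, *Eno1*, *Pkm*, *Slc16a1*, *Pdk1*, *Egln1*, *P4ha1*, *P4ha2* and *Ndrg1*. *Hif1a* was called the opposite way in each, and no member was called in the same direction in both, where 3.77% of all genes were. By sign alone, 33 of 39 were above 0 for *Fmr1* and below 0 for *Zfp598*, against 26.2% of all genes. Across the 39 genes the log2 differences had a Pearson r of -0.45, and across all genes -0.087. Genes share their libraries and are not independent replicates, so these values describe the plot of siRNA B against siRNA A and carry no p.

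**Figure D5:**
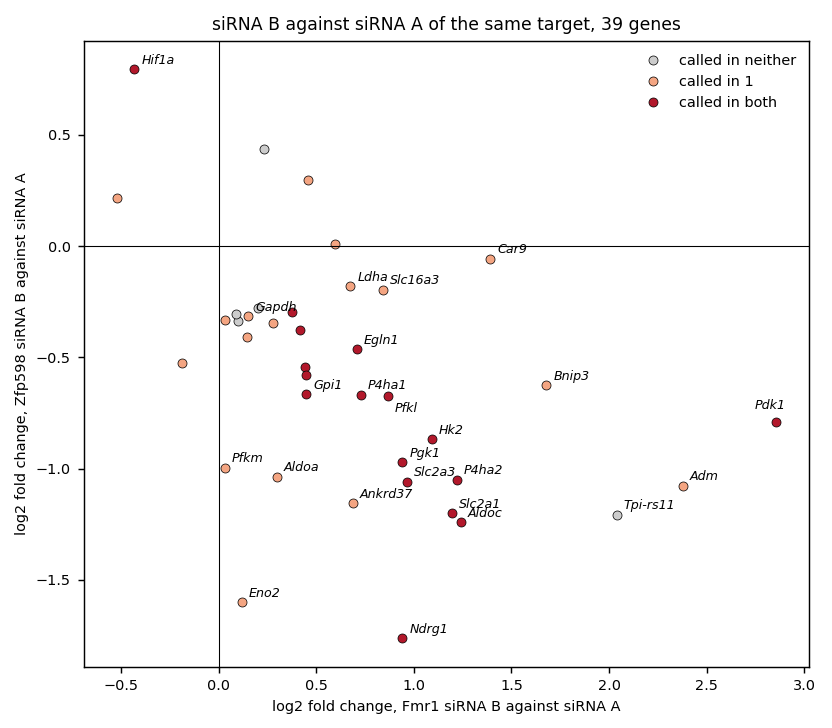
Log2 fold change of siRNA B against siRNA A for *Fmr1* (x axis) and for *Zfp598* (y axis), 1 point per gene, coloured by whether the gene was called in neither, 1 or both. Of 39 genes, 33 lie in the lower right part, and *Hif1a* lies alone at the upper left among the genes called in both. The side on which genes lie depends on which siRNA of a target is labelled A.

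Next, *Zfp598* siRNA A was set against Scramble A, and *Zfp598* siRNA B against Scramble B. These comparisons share the Scramble KD libraries with the *Fmr1* contrasts that were used in choosing the list. With both siRNAs pooled, 0 of 39 genes were called in either direction with edgeR at an adjusted p under 0.05, where 0.916% of all genes were higher and 1.04% lower, and 4 had an unadjusted p under 0.05. DESeq2 also called 0, with 5 at an unadjusted p under 0.05. The median was -0.017. *Gapdh* had a log2 change of -0.29 ± 0.10 (SE), adjusted p = 0.139, and its *Zfp598* KD libraries (1138 to 1699 CPM) overlapped Scramble KD (1488 to 1865 CPM). The medians of the siRNAs taken apart were 0.11 for siRNA A and -0.26 for siRNA B. Without Zfp598 A2 and A3, a choice made after the data were seen, 3 genes were called.

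*Zfp598* siRNA A gave 5 genes higher and 1 lower than Scramble siRNA A, with a background of 5.6% higher and 5.43% lower. Among the well counted genes 9.84% were called higher and 8.64% lower. *Slc2a3* had 459.5, 372 and 312 CPM in Scramble A and 978, 968 and 839 CPM in Zfp598 A (1.28 ± 0.19 (SE), adjusted p = 0.000169), without overlap between these groups. The Zfp598 A libraries did overlap Scramble B, which had 846, 1004 and 436 CPM. *Hif1a* fell by 0.60 on the log2 scale (adjusted p = 0.00119). These calls held without any single library, but without Zfp598 A2 and A3 together *Hif1a* stood at -0.29 (adjusted p = 0.131). *Ankrd37* (1.40; 1.07, adjusted p = 0.0917, without Zfp598 A2), *Pdk2* (0.93; 0.78, adjusted p = 0.115, without Scramble A2), *Kdm3a* (0.52; 0.43, adjusted p = 0.0684, without Scramble A3) and *Pgk1* (0.49; 0.41, adjusted p = 0.0924, without Scramble A3) were higher in the full set. Their calls were lost without Scramble A3 or Zfp598 A2, for *Pdk2* without Scramble A1, Scramble A2 or Zfp598 A2, and for *Kdm3a* without Scramble A3. The count was 3 without Scramble A3 and 12 without Zfp598 A1.

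*Zfp598* siRNA B gave 16 genes lower and 3 higher than Scramble siRNA B, with a background of 13.2% lower and 12.0% higher. Among the well counted genes 21.0% were called lower and 16.9% higher. The median of the members was -0.26, with 32 of 39 below 0. *Eno2* had 522, 611 and 311 CPM in Scramble B and 182, 182 and 214 CPM in Zfp598 B (-1.32 ± 0.17 (SE), adjusted p = 8.73e-06). *Pgk1* had 943, 1003 and 682 CPM and 437, 452 and 409 CPM (-1.01 ± 0.13 (SE), adjusted p = 9.45e-06), and *Hk2* differed by -0.82 ± 0.15 (SE), adjusted p = 0.000456. Neither *Eno2* nor *Pgk1* overlapped, although Scramble B3 was the lowest of the 3 controls for both.

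*Vegfa* (-0.61 ± 0.094 (SE), adjusted p = 6.89e-05), *Ndrg1* (-1.06 ± 0.24 (SE), adjusted p = 0.0024), *P4ha1* (-0.79) and *P4ha2* (-0.68) were lower among the HIF1 targets. *Gapdh* differed by -0.47 ± 0.10 (SE), adjusted p = 0.0021, with 1138, 1247 and 1180.0 CPM against 1613, 1865 and 1488 CPM, and *Pfkfb4* (0.73 ± 0.13 (SE), adjusted p = 0.000267) and *Pfkfb2* (0.58 ± 0.14 (SE), adjusted p = 0.00542) were higher. *Hif1a* was higher by 0.33 in the full set and lost the call without any 1 of the 6 libraries (0.31, adjusted p = 0.0844, without Scramble B3). *Adm* (-1.39; -1.07, adjusted p = 0.115, without Zfp598 B1) and *Slc2a1* (-0.75; -0.46, adjusted p = 0.228, without Scramble B2) were called in the full set and lost the call without 3 and 5 of the 6 libraries. For *Adm* these were Scramble B1, Scramble B2 and Zfp598 B1, and for *Slc2a1* all but Scramble B3. Without Scramble B3 23 genes were called, and without Scramble B2 13.

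The difference between those effects, siRNA B minus siRNA A, was tested directly as an interaction. For *Zfp598* KD it was below 0 with a call in 17 genes and above 0 in 3, with a background of 10.6% and 9.77% and a median of -0.56. The largest were *Ankrd37*, which encodes an ankyrin repeat protein induced by low oxygen (-2.06 ± 0.47 (SE), adjusted p = 0.00374), *Slc2a3* (-2.05 ± 0.27 (SE), adjusted p = 1.4e-05), *Ndrg1* (-1.72 ± 0.33 (SE), adjusted p = 0.000698), *Pgk1* (-1.50 ± 0.18 (SE), adjusted p = 6.95e-06) and *Eno2* (-1.34 ± 0.24 (SE), adjusted p = 0.000363). Those 5 calls held in each of the 12 fits without 1 library. *Hif1a* (0.92), *Pfkfb4* (0.81) and *Pfkfb2* (0.63) went the other way, and *Pfkfb2* lost the call in 9 of the 12 fits (0.51, adjusted p = 0.117, without Scramble A3).

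For *Fmr1* KD the difference was above 0 with a call in 17 genes, with a background of 11.6%, and edgeR called 0 below 0, with a background of 8.86%. Among the well counted genes 16.4% were above 0 with a call and 17.5% below. Of the 39 genes, 24 had an unadjusted p under 0.05, and DESeq2 also called 17 above 0 and 0 below. The largest were *Pdk1* (3.598 ± 0.43 (SE), adjusted p = 4.13e-06), *Adm* (2.17), *Bnip3* (1.84 ± 0.40 (SE), adjusted p = 0.00201), *P4ha2* (1.61 ± 0.23 (SE), adjusted p = 3.73e-05) and *Aldoc* (1.36 ± 0.28 (SE), adjusted p = 0.00139). *Adm* lost the call without Scramble A1 or Fmr1 A2 (1.68, adjusted p = 0.082, without Scramble A1). For *Gapdh* the difference was 0.11 ± 0.15 (SE) and was not called. This interaction is the difference of the *Fmr1* siRNA A and siRNA B contrasts with Scramble KD, which entered the choice of the list. Its calls are therefore not independent of that choice. Without Scramble B3 15 genes were called.

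Between the Scramble siRNAs, which have no intended target, the members were called about as often as other genes. With siRNA B 3 of 39 were higher and 4 lower than with siRNA A, where 9.48% of all genes were higher and 11.6% lower, and the median was -0.041. *Slc2a3* had 459.5, 372 and 312 CPM with siRNA A and 846, 1004 and 436 CPM with siRNA B (0.99 ± 0.19 (SE), adjusted p = 0.000652), and *Pgk1* differed by 0.53 ± 0.13 (SE), adjusted p = 0.00543. The libraries of *Slc2a3* overlapped, because Scramble B3 lay within the siRNA A range. *Pfkfb4* was lower with siRNA B (-0.51 ± 0.13 (SE), adjusted p = 0.00676). *P4ha1* (0.42; 0.26, adjusted p = 0.26, without Scramble B2), *Aldoa* (-0.47; -0.33, adjusted p = 0.178, without Scramble A1), *Pfkm* (-0.35; -0.29, adjusted p = 0.181, without Scramble A1) and *Pfkfb2* (-0.41; -0.29, adjusted p = 0.251, without Scramble A3) were called in the full set and lost the call without 3 to 5 of the 6 libraries. *Gapdh* (0.037 ± 0.10 (SE)) was not called. The count was 3 without Scramble A1 and 10 without Scramble A2. All 12 proliferation genes were higher with Scramble siRNA B, with a median of 1.03.

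Within the controls several hypoxia genes were uneven. *Bnip3* had 222, 173 and 129 CPM in Scramble A and 190.3, 214 and 64.5 CPM in Scramble B, *Adm* had 11.4, 6.76 and 3.19 and 10.3, 11.3 and 2.88 CPM, and *Pdk1* had 26.7, 24.1 and 16.5 and 15.4, 19.0 and 6.07 CPM. Scramble B3 was the lowest of the 6 for each. *Gapdh* spanned 1488 to 1865 CPM in the same libraries, and *Vegfa* 345 to 408 CPM.

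Related enzymes did not keep their proportions, compared here as ratios of CPM per kb. The size of a ratio depends on the annotated exon lengths, but its change between libraries does not. *Slc2a3* per *Slc2a1* was 2.66 to 2.93 in Scramble A and 5.51 to 7.63 in Scramble B, and highest in Fmr1 A at 7.02 to 8.14, which overlapped Scramble B. *Hk1* per *Hk2* was 2.21 to 2.37 in Fmr1 A, above every other library, and 1.09 to 1.11 in Fmr1 B. *Eno1* per *Eno2* was 3.91 to 5.30 in Zfp598 B, 3.59 to 4.15 in Fmr1 B and 2.87 to 3.43 in Fmr1 A, against 1.74 to 2.53 in Scramble B, 1.81 to 2.09 in Scramble A and 1.84 to 2.15 in Zfp598 A. *Bnip3* per *Bnip3l* was 0.400 to 0.476 in Fmr1 A, below every other library, and 1.06 to 1.51 in Fmr1 B. *Pfkl* per *Pfkm* was 0.732 to 0.862 in Fmr1 A and 1.41 to 1.47 in Fmr1 B.

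*Gapdh*, *Tpi1* and *Eno2* lie within a short span of chromosome 6 (GRCm39), from 124736247 at *Eno2* to 125143518 at *Gapdh*, with 24 genes tested in it. Of the 21 that are not members, 9 were called for *Zfp598* siRNA B against siRNA A, each lower, where 18.1% of all genes were lower and 15.2% higher, and their median log2 difference was -0.29. For *Fmr1* KD against Scramble KD, given as a description, the median of these 21 genes was 0.069. *Tpi-rs11*, listed among the members, is a 310-base processed pseudogene on the same chromosome. Its sequence matched bases 613 to 922 of a 1607-base coding transcript of *Tpi1* with 7 differences (97.74% identity). It had 0 to 19 counts per library, or 0 to 1.32 per 1000 *Tpi1* counts, so its values cannot be told apart from stray reads of *Tpi1*.

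Other copies of members mattered little except for enolase. *Eno1b*, a protein-coding copy of *Eno1* on chromosome 18, held 28.8% as many counts as *Eno1*, and how reads that match both were counted is not stated. *Eno1b* differed by -0.65 ± 0.18 (SE, adjusted p = 0.00916) for *Zfp598* siRNA B against siRNA A and by 0.39 ± 0.18 (SE, adjusted p = 0.131) for *Fmr1* siRNA B against siRNA A. The signs were those of *Eno1*. *Pgam1-ps2* held 0.986% as many counts as *Pgam1*, and no other copy of *Ldha*, *Pgk1*, *Aldoa*, *Gapdh*, *Tpi1* or *Pgam1* held more than 0.122% of its member's counts.

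A further 3 members were at or near 0. *Ldhb*, the lactate dehydrogenase subunit of oxidative tissues, had 51 counts (3.44 CPM) in Fmr1 B1 and 0 in the other 17 libraries, and *Pdk3* had 14 counts (0.944 CPM) in Fmr1 B1 and 0 elsewhere. *Egln3*, a prolyl hydroxylase induced by HIF1, had 7 counts in Fmr1 B1 and 0 to 0.320 CPM in the other libraries. Fmr1 B1 is the library that alone held 122 such features, and no level of these genes is read from it.

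The wider pathways were followed in 43 further glycolysis genes and 50 further HIF pathway genes, lists that exclude the 42. Of 35 further glycolysis genes tested, 9 were higher and 1 lower for *Fmr1* siRNA B against siRNA A, and 2 higher and 7 lower for *Zfp598* siRNA B against siRNA A. The shares over all genes were 12.6% and 10.4% for the first and 15.2% and 18.1% for the second, so that the number lower for *Zfp598* was near the background. *Pcx* (pyruvate carboxylase, which feeds oxaloacetate to mitochondria) was among them with 0.93 ± 0.096 (SE), adjusted p = 5.79e-07 and -0.93 ± 0.097 (SE), adjusted p = 7.62e-07. Of 42 further HIF genes tested, 13 were higher and 9 lower for *Fmr1* (median 0.12), and 1 was higher and 20 lower for *Zfp598* (median -0.35), against those same shares. *Hmox1* (heme oxygenase) was lower with *Fmr1* siRNA B (-2.33 ± 0.11 (SE), adjusted p = 7.95e-12), against the direction of the 39 genes.

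For *Zfp598* siRNA B against siRNA A the 2 largest calls in the HIF list were *Bhlhe40*, a transcriptional repressor (-1.62 ± 0.16 (SE), adjusted p = 6.46e-07), and *Plod2*, a collagen lysyl hydroxylase (-1.47 ± 0.20 (SE), adjusted p = 1.26e-05). In the *Fmr1* interaction the largest were *Hif3a* (2.81 ± 0.57 (SE), adjusted p = 0.00119) and *Fam162a* (2.25 ± 0.26 (SE), adjusted p = 3.29e-06). The further glycolysis list, which holds pyruvate, lactate and gluconeogenesis genes, had medians of -0.036 and -0.019 in the *Fmr1* and *Zfp598* comparisons of siRNA B with siRNA A, close to those of all genes.

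Other genes of these lists were called as follows. With *Fmr1* siRNA B against siRNA A, *Slc2a4* (GLUT4) was higher (2.18 ± 0.50 (SE), adjusted p = 0.003) and *Angptl4* lower (-2.12 ± 0.73 (SE), adjusted p = 0.0413). With *Zfp598* siRNA B against siRNA A, *Pck2*, a mitochondrial enzyme of gluconeogenesis, was lower (-1.04 ± 0.14 (SE), adjusted p = 1.89e-05). Against Scramble siRNA B, *Zfp598* siRNA B had lower *Bhlhe40* (-1.72 ± 0.16 (SE), adjusted p = 2.44e-07), *Car12* (-1.39 ± 0.21 (SE), adjusted p = 6.42e-05) and *Pcx* (-0.89 ± 0.095 (SE), adjusted p = 1.09e-06), and higher *Ldhd* (0.89 ± 0.29 (SE), adjusted p = 0.0291). Against Scramble siRNA A, *Zfp598* siRNA A had higher *Minpp1* (0.74 ± 0.1 (SE), adjusted p = 6.3e-05) and lower *Bpgm* (-0.47 ± 0.12 (SE), adjusted p = 0.0118), *Bhlhe41* (-0.85 ± 0.20 (SE), adjusted p = 0.00936) and *Loxl2* (-0.84 ± 0.19 (SE), adjusted p = 0.0066). In all, 2 further glycolysis genes were higher and 1 lower there, and 4 further HIF genes were higher and 6 lower, where 5.6% of all genes were higher and 5.43% lower.

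Between the Scramble siRNAs, *Ldhc* (-1.39 ± 0.45 (SE), adjusted p = 0.0316), *Dusp1* (-0.85 ± 0.18 (SE), adjusted p = 0.00155) and *Loxl2* (-0.81 ± 0.19 (SE), adjusted p = 0.0034) were lower and *Gpd2* (0.59 ± 0.16 (SE), adjusted p = 0.0111) was higher with siRNA B. The difference in the *Zfp598* KD effect was below 0 for *Bhlhe40* (-2.13 ± 0.23 (SE), adjusted p = 1.39e-06), *Ak4* (-1.38 ± 0.23 (SE), adjusted p = 0.000216), *Bsg* (-0.93 ± 0.21 (SE), adjusted p = 0.00295) and *Pck2* (-0.90 ± 0.20 (SE), adjusted p = 0.00313). The difference in the *Fmr1* KD effect was above 0 for *Slc2a4* (2.27 ± 0.70 (SE), adjusted p = 0.0245) and *Pdp2*, a pyruvate dehydrogenase phosphatase (1.25 ± 0.14 (SE), adjusted p = 1.75e-06).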

How the data were processed

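RNA was taken from N2A cells 72 h after siRNA transfection, in 18 libraries (6 siRNA groups of 3). Reads were trimmed by the authors (TrimGalore), mapped with STAR against GRCm39 and assigned to exons of genes by featureCounts. What they deposited are raw counts, whole numbers for each gene and library, neither normalized nor pooled. The annotation release, strand setting and treatment of reads with several matches are not given in the sources used here. No column of counts was left out (0 unused).

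Here counts were scaled by TMM and fitted with edgeR 4.0.16 (R 4.3.3, glmQLFit and glmQLFTest) after filterByExpr (minimum count 10, minimum total 15). Pooled comparisons used a model with the condition as its only term (17901 genes), and comparisons between siRNAs a model of 6 groups (19003 genes). Benjamini-Hochberg adjustment ran across every gene in a fit, and a gene was called at an adjusted p under 0.05. Symbols, exon lengths and starts came from GENCODE M39, which has 54749 of the 55414 features. The limit of 50 CPM for well counted genes was chosen after values were seen. DESeq2 1.42.0 was an alternative, with other scaling, no filter, a replicate block, a 2-fold criterion, a term for the siRNA letter and each library left out in turn. The fits were tested on simulated data. Libraries of the same siRNA differed by more than counting error in every pair, and unequally between groups. The chi-square per degree of freedom was 28.8 to 140 in Zfp598 A and 6.5 to 37.9 in Scramble A. It was 2.78 to 12.4 in the other groups. The model shares a single estimate of the spread over all libraries, so p-values in comparisons with Zfp598 A or Scramble A may understate their spread.

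The members, the lists of further genes and the tests were chosen with earlier results of these data known. All 42 members are accounted for. Named with values are those that carry a result and the 5 called members that changed most in each comparison, and outside the list the siRNA targets, near-identical copies and the 2 called genes that changed most in each list of further genes. *Mycn* and the other markers were named after values were seen.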

Additional observations from a re-analysis of the deposited data

Results flagged for a closer look

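In the *Fmr1* KD group 3 genes had a library far from the other 5. All were in Fmr1 B1, at 3.44 CPM for *Ldhb*, 0.944 CPM for *Pdk3* and 0.472 CPM for *Egln3*. The test was run on 126 groups of 6 libraries, and chance flags about 1 in 20 groups.

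The effect of KD differed between siRNA A and siRNA B by a test of the difference in 20 genes for *Zfp598*. The log2 differences, siRNA B minus siRNA A, were below 0 for *Slc2a1* -1.12, *Slc2a3* -2.05, *Hk2* -1.02, *Gpi1* -0.60, *Pfkm* -0.64, *Pfkp* -0.52, *Aldoc* -1.12, *Pgk1* -1.50, *Pgam1* -0.56, *Eno2* -1.34, *Pkm* -0.68, *Vegfa* -0.64, *Egln1* -0.66, *Ankrd37* -2.06, *P4ha1* -1.09, *P4ha2* -0.66 and *Ndrg1* -1.72, and above 0 for *Pfkfb2* 0.63, *Pfkfb4* 0.81 and *Hif1a* 0.92.

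For *Fmr1* KD the effect differed in 17 genes, with log2 differences of *Slc2a1* 1.27, *Hk2* 0.94, *Gpi1* 0.52, *Pfkl* 1.18, *Pfkfb4* 0.97, *Aldoa* 0.76, *Aldoc* 1.36, *Tpi1* 0.85, *Eno1* 0.70, *Ldha* 0.61, *Slc16a3* 1.00, *Pdk1* 3.598, *Bnip3* 1.84, *Car9* 1.27, *P4ha2* 1.61, *Ndrg1* 0.98 and *Adm* 2.17. Both sets of tests use the same Scramble KD libraries, paired with the KD siRNAs by letter, which is arbitrary as far as the labels say. The *Fmr1* set is also built from contrasts used in choosing the list. The direct comparison of siRNA B with siRNA A leaves out the Scramble KD libraries. There 16 of the 17 *Fmr1* genes (not *Aldoa*) were also called in the same direction. So were 18 of the 20 *Zfp598* genes (not *Pfkfb2* and *Pfkfb4*). The direct comparison is a component of the difference and uses the same KD libraries, so this overlap is partly built in and is not independent support.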

How the results depend on the processing

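Across the 39 genes and the alternatives run, no log2 change that was called reversed its sign. With size factors by relative log expression or without the most counted feature, each count of called genes stayed within 1.5 times its value. A term for the siRNA letter was run for the pooled comparisons, with 0 genes called for *Zfp598* KD and a median of -0.62 for *Fmr1* KD. Without a filter on low counts, 12 genes were called for *Zfp598* siRNA A against Scramble siRNA A and 12 for Scramble siRNA B against siRNA A, in place of 6 and 7. DESeq2 called 11 for the latter. Fitted on the libraries compared alone, *Zfp598* siRNA A against Scramble siRNA A gave 1. With a change of more than 2-fold required as well, the counts were 2 for *Zfp598* siRNA A and 4 for *Zfp598* siRNA B against their controls, 0 between the Scramble siRNAs, 8 between the *Fmr1* and 8 between the *Zfp598* siRNAs, and 9 for each difference in KD effect. Without Zfp598 A2 and A3 together, chosen after the data were seen, 3 genes were called for *Zfp598* KD pooled. The causes were not tested.

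Leaving out 1 library at a time, the median log2 change for *Fmr1* KD was -0.68 to -0.55 pooled, -0.97 to -0.79 for siRNA A and -0.58 to -0.21 for siRNA B. Counts of called genes were 0 to 1 for *Zfp598* KD pooled, 3 to 12 for *Zfp598* siRNA A and 13 to 23 for *Zfp598* siRNA B against their controls, and 3 to 10 between the Scramble siRNAs. They were 22 to 24 between the *Fmr1* siRNAs, 19 to 26 between the *Zfp598* siRNAs, 15 to 24 for the difference in *Zfp598* KD effect and 14 to 18 for that in *Fmr1* KD effect.

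Whether replicate numbers pair the libraries was not settled. Of 45 pairs with the same number, 16 had deviations correlated above 0.1 (range -0.40 to 0.34). Between libraries of replicate 3 every correlation was above 0, from 0.055 to 0.27. What those libraries share was not tested. With the replicate number as a block, the counts were 0 for *Zfp598* KD pooled, 6 and 20 for *Zfp598* siRNA A and B against their controls, 10 between the Scramble siRNAs, 25 between the *Fmr1* siRNAs, 28 between the *Zfp598* siRNAs, and 21 and 17 for the differences in *Zfp598* and *Fmr1* KD effect. At 3 libraries a siRNA, genes with few counts, such as *Adm* and *Car9*, had wide errors.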
